A study of Mus musculus with 19 samples.

Results

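Mir5099, Mir3963, Mir1957a and Gm27527 are 4 of the 2198 mouse miRNA hairpins used here, and 2167 of those hairpins had at least 1 read. They were chosen for their reads in traditional small RNA sequencing of sperm and for doubt about whether those reads come from the hairpins. Reads of any length were counted on a hairpin when they matched it in the sense direction with at most 1 mismatch. The sperm came from the cauda epididymis of wild-type C57BL/6J male mice, which were 8 weeks old at the start and were given corn oil vehicle (control) or dicyclohexyl phthalate (DCHP), a plasticizer, at 10 mg/kg body weight/day by oral gavage for 4 weeks. Somatic cells were lysed before RNA was taken, and RNA of 15–50 nt was sequenced. Before PANDORA-seq the RNA was treated with T4 polynucleotide kinase (T4PNK), which repairs fragment ends so that adapters can be joined, and with the demethylase AlkB, which takes off base methylations that block the reverse transcriptase. Traditional RNA-seq is the standard protocol for small RNA. There were 4 control and 5 DCHP libraries by PANDORA-seq, and 5 control and 5 DCHP libraries by traditional RNA-seq. Because the treatment label reads DCHP for all 19 libraries, control or DCHP status follows the library titles. The study describes its PANDORA-seq replicates as biological replicates of mice. It used sperm RNA of control and exposed sires for both methods, but the sources used here do not say which animals the traditional libraries came from, so their p-values may measure technical spread.

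A miRNA hairpin is cut by Drosha and Dicer into a mature miRNA of fixed length with a precise 5′ end, which pairs with targets through its seed. Sperm is rich in other short RNAs, above all fragments of tRNAs and of rRNAs and their precursors. Such fragments can match an annotated hairpin that contains a similar stretch of sequence. Modified bases and phosphate ends of tRNA fragments are known to hinder their sequencing by standard protocols.

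The hairpins are given first, because the finding rests on where the reads depart from them. The sequences are GENCODE vM21 transcripts on GRCm38, written 5′ to 3′ in the sense of the hairpin. The capitals mark the 15-base stretch with the highest level in its reads (the leading window).
Gm27527: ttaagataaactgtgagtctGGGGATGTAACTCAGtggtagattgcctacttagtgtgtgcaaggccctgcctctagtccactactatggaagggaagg
Mir1957a: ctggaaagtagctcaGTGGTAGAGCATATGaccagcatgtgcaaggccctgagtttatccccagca
Mir3963: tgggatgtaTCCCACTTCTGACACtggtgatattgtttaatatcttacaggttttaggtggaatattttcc
Mir5099: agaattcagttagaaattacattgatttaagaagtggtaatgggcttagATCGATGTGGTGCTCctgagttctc

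Gm27527 (ENSMUSG00000098703.1) is 99 nt long at chr5:106879600-106879698 on the minus strand, inside an intron of Hfm1, a meiotic DNA helicase gene on the same strand. Mir1957a (ENSMUSG00000088552.1) is 66 nt long at chr4:119129779-119129844 on the plus strand, inside an intron of Slc2a1, which encodes a glucose transporter. Mir3963 (ENSMUSG00000092830.1), 71 nt at chr3:151023792-151023862 on the minus strand, and Mir5099 (ENSMUSG00000092998.1), 74 nt at chr12:36816205-36816278 on the plus strand, overlap no other annotated gene. RefSeq (GRCm38.p6) gave a mature sequence for Mir3963 among these 4. It is shown because it can be looked for in the reads, with its seed (bases 2 to 8) in capitals, and lies on the minus strand at chr3:151023839-151023857.
mmu-miR-3963: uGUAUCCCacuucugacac

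That 19-nt sequence was held whole and without mismatch by 0 of the 6951 Mir3963 reads of PANDORA-seq and by 2 of the 44054 of traditional RNA-seq, although 6716 and 33883 of these reads overlapped it by 15 or more bases. For each hairpin the most common read in each method is shown next, because each departs from the hairpin at a fixed base. That base is in capitals. A substitution is written as the hairpin's base, its position from 1 at the hairpin's 5′ end and the read's base.
Gm27527, PANDORA-seq, A30G: ggggatgtaGctcagtgg
Gm27527, traditional RNA-seq, A30G: ggggatgtaGctcagtggtaga
Mir1957a, PANDORA-seq, A28T: agctcagtggtagagcatTtgac
Mir1957a, traditional RNA-seq, A28T: agtggtagagcatTtgac
Mir3963, PANDORA-seq, T8A: gAatcccacttctgacac
Mir3963, traditional RNA-seq, T25C: atcccacttctgacacC
Mir5099, PANDORA-seq, T66G: atcgatgtggtgctccGgagtt
Mir5099, traditional RNA-seq, G44T: Tcttagatcgatgtggtgct

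Such a substitution was in nearly all reads counted on Gm27527 and Mir1957a. A30G was in 97.4% ± 0.663 (SD over 9 libraries) of the Gm27527 reads of PANDORA-seq and in 95.8% ± 0.690 (SD, n = 10) of those of traditional RNA-seq. A28T was in 99.3% ± 0.522 of the Mir1957a reads of PANDORA-seq and in 99.3% ± 0.241 of those of traditional RNA-seq. The 2 hairpins therefore had almost no exact reads. Reads without mismatch made up 1.43% to 2.34% of the Gm27527 reads in 18 of the 19 libraries and 0.913% in PANDORA-seq DCHP replicate 1, and at most 0.364% of the Mir1957a reads in any library.

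In Mir3963 and Mir5099 the kind of substitution depended on which end of the stretch a read reached. T8A was in 48.8% ± 12.4 (SD, n = 9) of the Mir3963 reads of PANDORA-seq and in 5.30% ± 6.64 (SD, n = 10) of those of traditional RNA-seq, while T25C was in 31.5% ± 10.52 and 63.3% ± 9.98. Another 5.14% and 3.88% had T17C. For Mir5099, T66G was in 95.8% ± 2.68 of the PANDORA-seq reads and in 47.3% ± 3.796 of the traditional reads, and G44T was in 2.90% ± 1.70 and 40.7% ± 2.26. Exact reads were 13.6% ± 2.13 and 23.95% ± 8.92 for Mir3963, and they ran from hairpin position 9 or 10 to position 24 in the exact sequences among the 5 most common of each method, between the differing bases. The same held for Mir5099, whose most common exact read ran from position 50 to 64. A read that spans 2 differing bases has 2 mismatches and is left out by the 1-mismatch limit, so the limit itself sets which lengths and ends are counted.

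To see the reads without that limit, every read holding the whole leading window was taken, whatever its other bases (window reads). Counted reads that hold only part of the window are not among them. For Gm27527 and Mir1957a the window was used as the reads have it, with A30G and A28T. The share of window reads that the 1-mismatch rule counted was 78.5% ± 8.73 (SD, n = 9) by PANDORA-seq and 55.7% ± 8.15 (SD, n = 10) by the traditional method for Gm27527. It was 11.2% ± 3.32 and 28.6% ± 5.73 for Mir1957a, 33.4% ± 12.2 and 61.2% ± 14.7 for Mir3963, and 23.5% ± 4.35 and 23.9% ± 3.51 for Mir5099. Most window reads of Mir1957a and Mir5099 thus fell outside the 1-mismatch rule in each method.

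**Figure D1:**
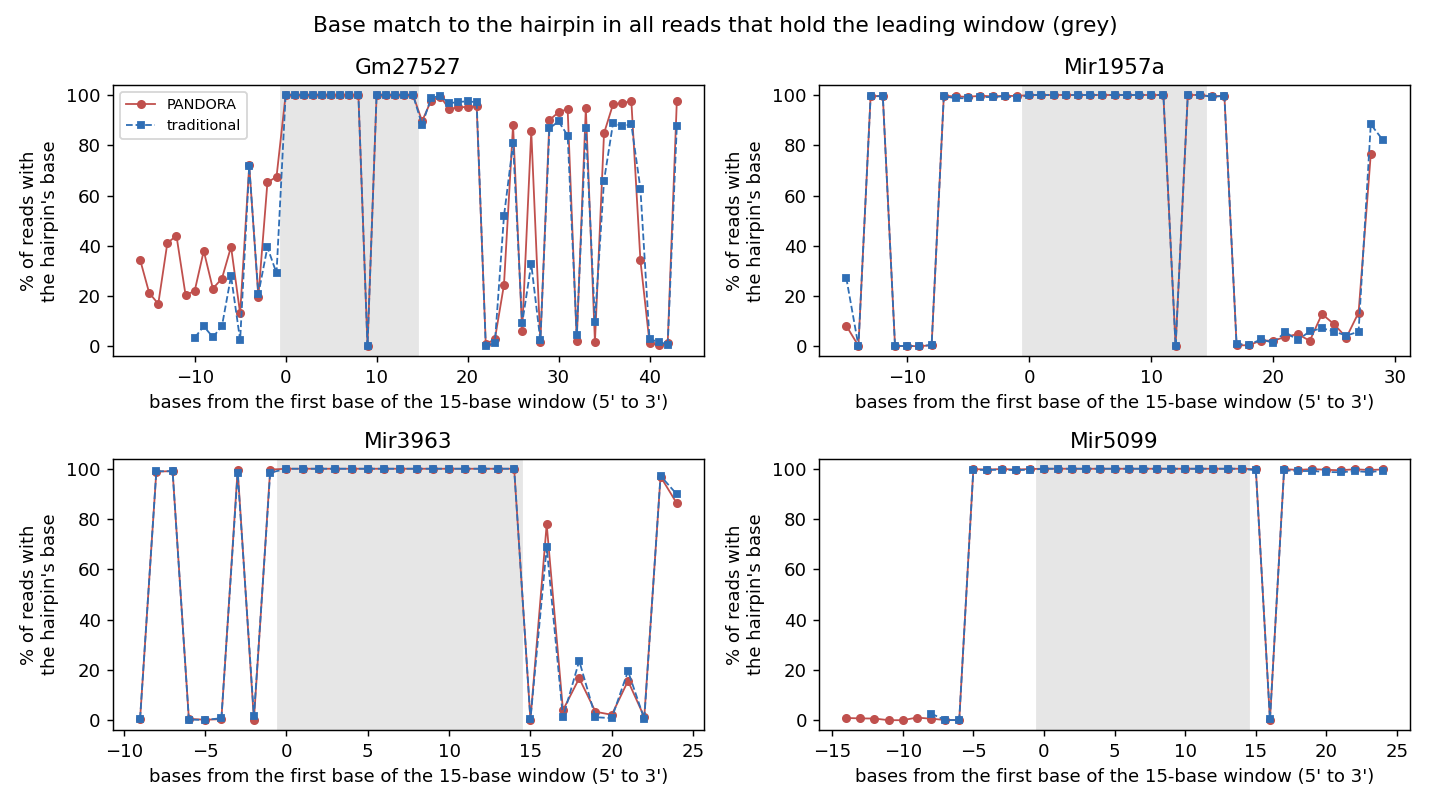
Percent of window reads with the hairpin's base (y axis) against the distance in bases from the start of the 15-base leading window (x axis, window in grey), for positions of the hairpin covered by at least 100 reads, summed over the 9 PANDORA-seq libraries (circles, solid) and the 10 traditional libraries (squares, dashed). Match in the window is set by the choice of reads, at 100%, and at 0% for the fixed base inside it in Gm27527 and Mir1957a. Outside the window it drops to near 0% at fixed positions on flanks that the reads reach, in Mir3963 directly after the window. In Gm27527 the 5′ flank and the flank past T43G are mixed.

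The window reads followed the hairpins only over a short core. Inside the window their bases are fixed by how the reads were taken, so only positions outside it were open to differ. In Mir1957a they matched from hairpin position 9 to 32 apart from A28T, and beyond it the reads had T2G, A5G, A6G, A7T and G8A in at least 98.5% of the reads that covered those positions, and C33T and A34G in at least 98.659%. In Mir3963 the match ran from position 9 to 24, between T8A (99.4% of covering PANDORA-seq reads and 95.4% of traditional ones) and T25C (92.3% and 95.9%). Of this stretch only position 9 lies outside the window. In Mir5099 it ran from position 45, next to G44T and G43C, with T66G as the only differing base up to the end of the hairpin at position 74. At position 66, 99.8% of the 63221 covering reads of PANDORA-seq and 99.3% of the 126938 of traditional RNA-seq had T66G, and the hairpin's base was in 0.0459% and 0.291%. In Gm27527 the reads left the hairpin at position 43, where T43G was in 94.5% of the 2866 covering reads of PANDORA-seq and in 99.4% of the 141874 of traditional RNA-seq. The substitutions named here were the same in both methods.

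A few reads did hold the hairpin's base inside the Gm27527 window. Of reads starting at Gm27527 position 21 and otherwise matching its window, 1.68% in PANDORA-seq (341 reads) and 2.17% in traditional RNA-seq (9283 reads) had the hairpin's A at position 30, against 0.0790% and 0.0923% with A30C and 0.0839% and 0.191% with A30T. Of the 62 and 3315 such reads with the hairpin's base at 30 that went on to position 43, 98.4% and 99.2% had T43G and 0% and 0.0905% had the hairpin's base. Reads with the hairpin's base at position 30 therefore carried the same next differing base as the A30G reads, of which 98.2% and 99.4% had T43G.

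Longer window reads show what lies on either side. Of the 4 most abundant reads of 28 nt or more of each hairpin, 2 of different ends are given, with the leading window in capitals. Those of Gm27527 continue the 5′ end GGGGATGTAGCTCAG that alanine tRNAs are known for, and those of Mir1957a start with the 5′ end of the cysteine tRNA with anticodon GCA. Those of Mir3963 hold the T-arm and the 3′ end known for leucine tRNAs, up to the discriminator base and the C that starts the CCA tail. The 2 shown for Mir3963 differ in the bases before the T-arm, so they are not from 1 and the same tRNA sequence. The 2 shown for Gm27527 had means of 2.06 and 0.635 RPM in traditional RNA-seq, and of 0.0611 and 0.0427 RPM in PANDORA-seq. They have G at positions 45 and 47, whereas G45A was in 65.9% and C47A in 79.4% of the covering PANDORA-seq window reads. They therefore do not stand for most PANDORA-seq reads that go on past position 44. These tRNA identities are background knowledge, since no tRNA sequence was matched here.
Gm27527, 30 nt: GGGGATGTAGCTCAGtggtagagcgcgcgc
Gm27527, 31 nt: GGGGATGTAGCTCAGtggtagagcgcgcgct
Mir1957a, 31 nt: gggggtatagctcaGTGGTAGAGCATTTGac
Mir1957a, 33 nt: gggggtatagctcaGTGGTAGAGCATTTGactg
Mir3963, 34 nt: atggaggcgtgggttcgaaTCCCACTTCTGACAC
Mir3963, 40 nt: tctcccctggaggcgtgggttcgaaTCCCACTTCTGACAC
Mir5099, 28 nt: tcttagATCGATGTGGTGCTCcggagtt
Mir5099, 45 nt: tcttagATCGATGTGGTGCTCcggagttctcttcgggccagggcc

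Each of these 8 reads had 2 to 8 mismatches inside the hairpin, and those of Mir3963 and the longer one of Mir5099 reached past its end by 10, 16 and 14 bases. None had an exact match in an annotated transcript of either strand. The share of long reads was highest in Mir5099, where 71.1% ± 5.49 (SD, n = 9) of the window reads of PANDORA-seq and 52.2% ± 4.09 (SD, n = 10) of those of traditional RNA-seq were 28 nt or longer. The share was 41.9% ± 3.37 and 49.7% ± 10.7 in Mir1957a, 43.2% ± 15.2 and 19.5% ± 14.2 in Mir3963, and 5.80% ± 3.40 and 0.942% ± 0.302 in Gm27527.

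The Gm27527 reads were short 5′ fragments with an almost fixed start. Position 21 was the start of 99.6% ± 0.235 of the hairpin reads in PANDORA-seq and of 99.5% ± 0.259 in traditional RNA-seq. The 3′ ends were spread differently by method. Hairpin reads ended at position 38 in 49.3% ± 15.1 and at position 37 in 32.8% ± 8.60 of cases in PANDORA-seq, against 12.6% ± 7.86 and 24.4% ± 11.4 in traditional RNA-seq, where 38.4% ± 11.96 ended at position 42. In the window reads the most common traditional length was 23 nt, in 32.0% ± 9.03, which carries T43G and is not counted on the hairpin. Of the Gm27527 reads, 97.3% of those from PANDORA-seq and 95.7% of the traditional ones also matched Bc1-ps1. It is a pseudogene of BC1, a neuronal RNA whose 5′ domain is known to derive from an alanine tRNA. The 22-nt read was found whole in transcripts of 3 genes, Dennd5b, Gm37608 and Rnf214.

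The Mir1957a reads covered the inner part of the longer reads shown above. In PANDORA-seq 46.8% ± 10.9 (SD, n = 9) started at position 10 and 95.7% ± 1.96 ended at position 32, while in traditional RNA-seq 59.4% ± 7.20 (SD, n = 10) started at position 15 and 73.8% ± 5.23 ended at position 32. Among the window reads, 35.7% ± 3.57 and 46.6% ± 10.9 started at position 2. They ended most often at position 34 in PANDORA-seq (53.5% ± 5.12) and at position 32 in traditional RNA-seq (44.9% ± 3.55). Another annotated small RNA gene was matched by 2 of 1863 reads of PANDORA-seq and by 36 of 41028 reads of traditional RNA-seq.

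The Mir3963 reads had a common 3′ end. Of the window reads, 59.8% ± 6.53 (SD, n = 9) by PANDORA-seq and 44.4% ± 12.1 (SD, n = 10) by the traditional method stopped with C after position 23, and 36.8% ± 6.15 and 53.1% ± 12.2 stopped with CC. A complete CCA was found in 0.0204% ± 0.0312 and 0.0491% ± 0.0577. The window itself requires the C at position 24, so reads stopping before it were not counted. Of the reads with 10 or more bases before the window, 96.5% ± 2.06 and 92.7% ± 3.29 held GGTTCGA, the 7 letters of the T-loop start of many tRNAs, searched on the sense strand of the reads. Of the reads counted on the hairpin, 5.12% (PANDORA-seq) and 4.59% (traditional) matched Mir3968 as well.

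The Mir5099 reads ran into an annotated transcript that lies next to rRNA. Its window reads started at position 44 in 54.9% ± 3.97 (SD, n = 9) of PANDORA-seq and 52.6% ± 1.72 (SD, n = 10) of traditional reads and at position 43 in 16.7% ± 2.19 and 22.2% ± 3.17. From hairpin position 64 on, reads that continued for 15 or more bases were identical to the start of a transcript of the lncRNA gene Gm26917 in 94.6% ± 0.919 (range 93.3% to 96.2%) of cases in PANDORA-seq and in 89.2% ± 1.37 (range 86.7% to 91.6%) in traditional RNA-seq. Such reads were 26.1% ± 5.31 and 39.6% ± 3.10 of the window reads. This transcript lies at chr17:39843013-39846341 on the plus strand, and 11 bases separate its end from the locus at chr17:39846353-39848827 that carries the 18S rRNA sequence. The stretch before the 18S rRNA in the precursor is known as the 5′ external transcribed spacer, which is cut off as ribosomes are made. The long reads shown, which also cover bases before position 64, had no exact match in an annotated transcript, and no genome was used.

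**Figure D2:**
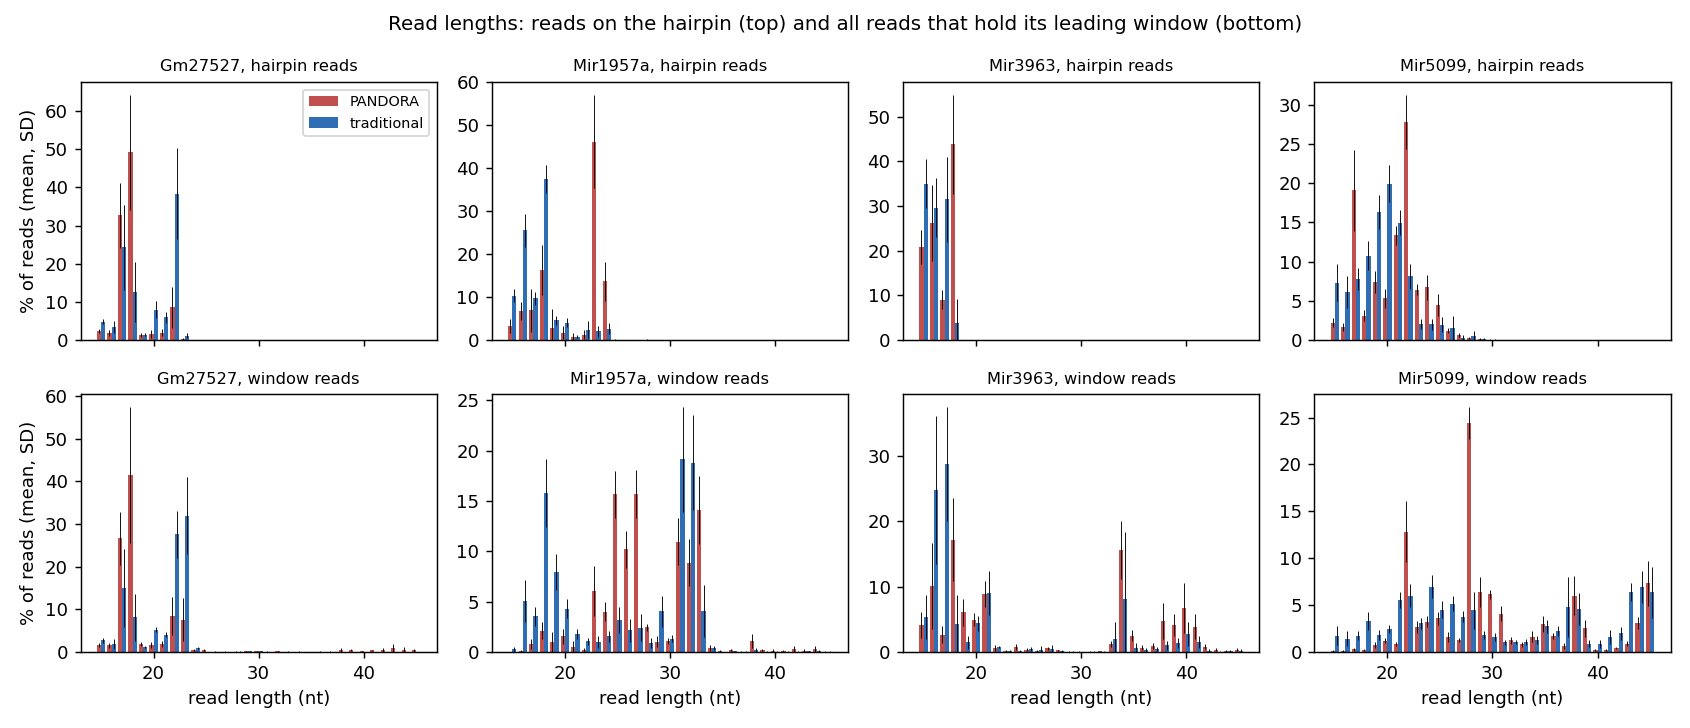
Read lengths in nt (x axis) as percent of reads (y axis; bars are means over 9 PANDORA-seq or 10 traditional libraries, lines 1 SD) for reads counted on each hairpin (top) and for all reads holding its leading window (bottom). Counted reads of Mir3963 are nearly all of 15 to 18 nt and those of Mir1957a nearly all of 15 to 24 nt. Window reads of each hairpin run up to 45 nt, the longest reads in the files. They are common at 31 to 33 nt in Mir1957a and at 45 nt in Mir5099. In Mir3963 the commonest length of 28 nt or more is 34 nt, and each length from 38 to 41 nt holds 3.90% to 6.73% in PANDORA-seq.

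Lengths of the counted reads differed between hairpins and methods. Reads of 20 to 24 nt, the lengths of most mature miRNAs, were in the median library 57.3% of the Gm27527 reads in traditional RNA-seq and 10.6% in PANDORA-seq. They were 12.05% and 67.3% of the Mir1957a reads, 47.3% and 57.6% of the Mir5099 reads, and 0% of the Mir3963 reads in both methods. The mean length was 18.02 nt ± 0.216 in PANDORA-seq and 19.5 nt ± 0.713 in traditional RNA-seq for Gm27527, 20.98 nt ± 0.737 and 17.6 nt ± 0.228 for Mir1957a, 16.8 nt ± 0.242 and 16.0 nt ± 0.183 for Mir3963, and 20.6 nt ± 0.347 and 19.5 nt ± 0.451 for Mir5099. The hairpins thus did not shift in a common direction between methods. The members were chosen on the contrast of methods, so all values that compare methods are descriptions without a test.

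Levels are given as reads per 1000000 total reads (RPM), of 21588335 to 56506344 total reads per library. Every library held at least 111 reads of each hairpin. Counting error weighs most on Mir1957a in PANDORA-seq, with 111 to 280 reads per library. The read total is shared by all RNAs, so a level per total read also moves with the other RNAs of the library. Gm27527 was the most abundant of the 4 by traditional RNA-seq. In controls it was at 994, 537, 726, 564 and 373 RPM in replicates 1 to 5, and in DCHP libraries at 613, 606, 778, 433 and 1091 RPM. By PANDORA-seq it was at 87.7, 50.1, 14.55 and 45.96 RPM in controls and at 46.3, 43.4, 55.1, 50.6 and 53.7 RPM in DCHP libraries. Every traditional library was above every PANDORA-seq library, with a ratio of medians of 12.2. By window reads, a count chosen after the data had been seen, the methods were also apart and the ratio was 16.7.

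Mir1957a was the least abundant in PANDORA-seq, at 4.44, 4.20, 2.91 and 3.91 RPM in control and 5.92, 8.24, 6.21, 7.86 and 6.01 RPM in DCHP replicates. By traditional RNA-seq it was at 146, 76.1, 125, 62.7 and 79.9 RPM in control and 146, 97.0, 174, 123 and 65.3 RPM in DCHP replicates. The ratio of medians was 18.6 and the methods did not overlap. By window reads, of which the 1-mismatch rule counted a smaller share in PANDORA-seq, the medians were 49.7 RPM (PANDORA-seq) and 322 RPM (traditional), a ratio of 6.47, still without overlap. Mir1957a thus had the highest ratio of the 4 by hairpin reads, and Gm27527 by window reads.

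Mir3963 was at 26.3, 20.4, 25.3 and 17.7 RPM in control and at 25.0, 21.7, 21.6, 19.3 and 7.46 RPM in DCHP replicates of PANDORA-seq. By traditional RNA-seq it was at 341, 98.0, 66.7, 53.6 and 32.0 RPM in control and at 42.2, 200.8, 288, 55.2 and 63.7 RPM in DCHP replicates. The traditional libraries thus spread widely within each exposure group. The ratio of medians was 3.02, and the lowest traditional library was 5.70 RPM above the highest PANDORA-seq library. This separation was not found by window reads, which ranged from 41.7 to 99.2 RPM in PANDORA-seq and from 36.6 to 360.3 RPM in traditional RNA-seq, with a ratio of medians of 1.68. Window reads do not hold all hairpin reads, and 33.4% ± 4.30 of the Mir3963 reads of traditional RNA-seq lacked the whole window, against 12.9% ± 1.76 of those of PANDORA-seq. The traditional reads starting at position 11, 23.2% ± 3.67 of the hairpin reads, are among them.

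Mir5099 was at 68.9, 47.5, 170.1 and 75.2 RPM in control and at 72.2, 45.8, 61.7, 54.8 and 98.6 RPM in DCHP replicates of PANDORA-seq. By traditional RNA-seq it was at 92.3, 77.5, 151, 57.4 and 145 RPM in control and at 68.4, 73.5, 82.9, 154 and 821 RPM in DCHP replicates. The methods overlapped and the ratio of medians was 1.27, so the name of a hairpin rich in traditional RNA-seq was not borne out for Mir5099 by these levels. By window reads the methods overlapped as well, with a ratio of 1.54. Replicate 5 of the traditional DCHP group stood apart from the rest.

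**Figure D3:**
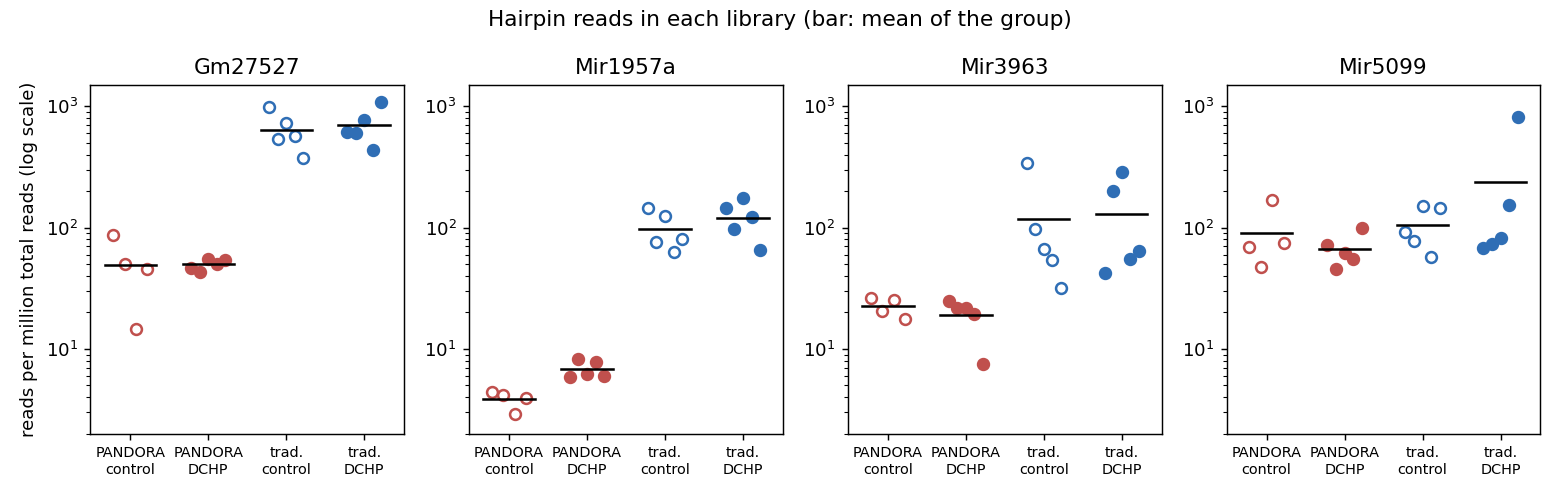
Reads counted on each hairpin per 1000000 total reads (log axis) in each of the 19 libraries (open points, control; filled points, DCHP; red, PANDORA-seq; blue, traditional RNA-seq), with a bar at the mean of each group of 4 or 5. Traditional libraries lie above PANDORA-seq for the first 3 hairpins, and the methods overlap in Mir5099, where traditional DCHP replicate 5 is at 821 RPM.

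Hairpins of well established miRNAs had much higher ratios of traditional to PANDORA-seq level than these 4. The 12 used for comparison, among them Mir10a, Mir21a and Mir148a, had ratios of medians of 103 to 366. Their traditional levels were not all higher, since the median of Gm27527, 609 RPM, was above those of Mir191, Mir34c, Mir26a-1 and Mir200b, at 80.5 to 558 RPM. In the median traditional library, 83.3% to 99.4% of their reads were 20 to 24 nt long and 21.6% to 91.2% had no mismatch, the lowest value being that of Mirlet7a-1, a member of a family of similar miRNAs that share reads at 1 mismatch. The share of reads at the leading start was 51.1% to 99.8% in these hairpins, against 41.6% in Mir5099, 51.2% in Mir3963, 61.8% in Mir1957a and 99.6% in Gm27527. A precise 5′ end therefore did not set Gm27527 apart from these 12 hairpins, whereas its 2.11% of reads without mismatch did. Mir6240 and Mir6236, with 22.2% and 25.6% of traditional reads at 20 to 24 nt, had ratios of 0.139 and 0.636. Over 611 hairpins with enough reads the median ratio was 2.81, and 72.7%, 48.1%, 28.5% and 26.5% of them had a higher ratio than Mir5099, Mir3963, Gm27527 and Mir1957a. The median traditional share without mismatch over these 611 was 46.1%. Of them, 27.0%, 18.2%, 8.84% and 3.93% were below Mir3963, Mir5099, Gm27527 and Mir1957a. For reads of 20 to 24 nt the median was 25.7%. There 77.7%, 76.3%, 22.1% and 0% were below Gm27527, Mir5099, Mir1957a and Mir3963. Methods that did not overlap by hairpin reads were not particular to Gm27527, Mir1957a and Mir3963. In all 12 comparison hairpins, too, the lowest traditional library was above the highest PANDORA-seq library, by at least 44.7 RPM. The share of all hairpins with this separation was not counted.

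**Figure D4:**
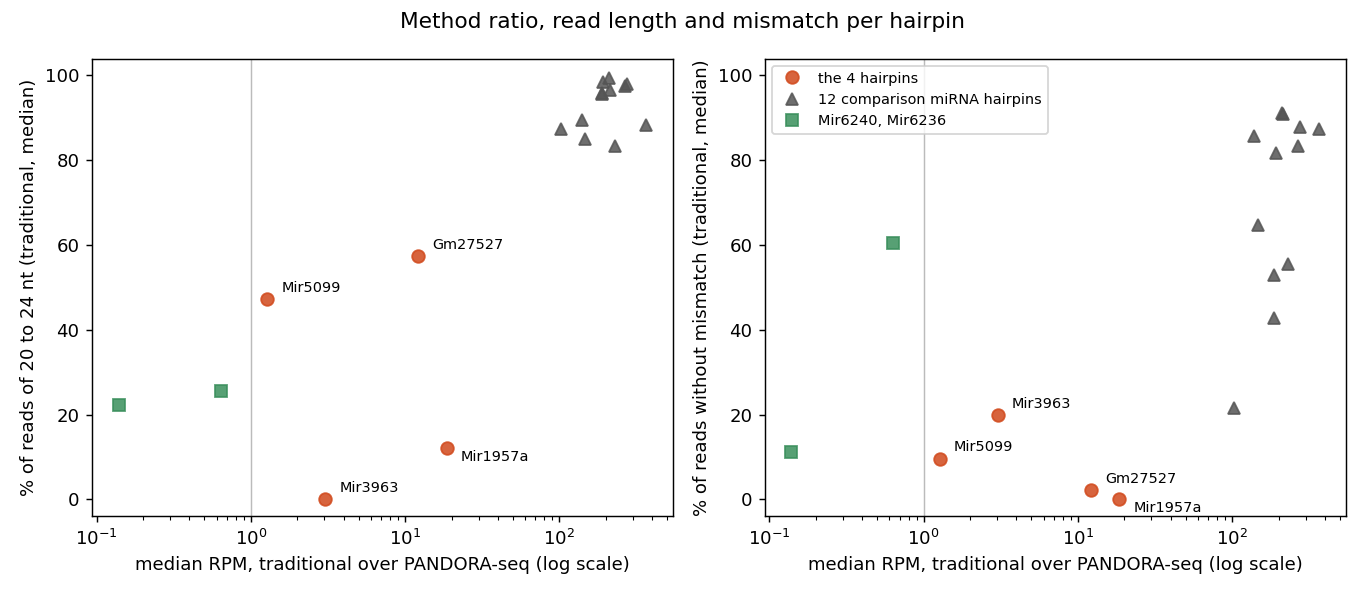
Ratio of median RPM, traditional RNA-seq over PANDORA-seq (x axis, log), against the percent of reads of 20 to 24 nt (left) and without mismatch (right) in the median traditional library, for the 4 hairpins (circles), 12 miRNA hairpins used for comparison (triangles) and Mir6240 and Mir6236 (squares). The 4 hairpins lie at ratios of 1.27 to 18.6 and at 0.0799% to 19.8% without mismatch, left of the comparison hairpins at 103 to 366.

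Exposure was compared within each method, which the choice of the members did not use. Mir1957a in PANDORA-seq was the only hairpin of the 4 whose groups did not overlap. Its level rose from 3.87 RPM ± 0.671 (SD, n = 4) in controls to 6.85 RPM ± 1.11 (SD, n = 5) in DCHP libraries, 1.77-fold (two-sided exact permutation test, p = 0.00794, the smallest value this design allows). By this test 1.1% of the 638 hairpins tested had p below 0.05 in PANDORA-seq. The share of all hairpins whose groups did not overlap was not counted. The permutation p-values of the 4 hairpins were not adjusted for the number of hairpins or methods. The edgeR quasi-likelihood test over all 638 hairpins gave a log2 fold change of 0.83 with an adjusted p of 0.445. The change thus did not pass the thresholds used here, an adjusted p below 0.1 and a fold above 2. These were taken from the study, which put them on single sequences, normalized to total miRNA and tested with samr. Exact reads of this hairpin numbered 1 in all 9 libraries and could not show a difference.

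Leaving out any 1 of the 9 libraries kept the difference at 2.63 to 3.21 RPM with exact permutation p of 0.0179 to 0.0286. The difference did not pass the test per read of the 12 comparison hairpins, as given at the end, nor when all window reads were counted. They were at 42.1 RPM ± 11.2 in PANDORA-seq controls and at 47.8 RPM ± 6.41 in DCHP libraries (exact permutation p = 0.357). The share of window reads that the 1-mismatch rule counted, also tested after the data had been seen, was 7.52%, 7.41%, 8.50% and 10.09% in control and 10.03%, 15.3%, 11.6%, 16.1% and 14.4% in DCHP replicates of PANDORA-seq. The groups overlapped in 1 library of each, and the means were 8.38% ± 1.24 (n = 4) and 13.5% ± 2.56 (n = 5; exact permutation p = 0.0238). Leaving out any 1 library other than control replicate 4 or DCHP replicate 1 raised this p above 0.05, to at most 0.0571 (exact permutation tests). Among the other 7 pairs of hairpin and method this share gave exact permutation p of 0.103 to 0.825. In traditional RNA-seq the reverse held: hairpin reads were at 98.0 RPM ± 35.6 and 121 RPM ± 42.4 (exact permutation p = 0.341), while window reads were at 243 RPM ± 73.3 in controls and 350 RPM ± 34.0 in DCHP libraries, 1.44-fold (exact permutation p = 0.0159). These window values, chosen after the data had been seen, still overlapped, with controls at 328, 184, 314, 171 and 218 RPM and DCHP libraries at 360, 338, 403, 316 and 330 RPM. By the same test on hairpin reads, 11.8% of 1052 hairpins had p below 0.05 in traditional RNA-seq. The median log2 fold change of these 1052 hairpins by edgeR was 0.40, so a rise in DCHP libraries was not particular to Mir1957a.

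The other hairpins did not differ between exposures beyond the spread of their replicates. Gm27527 was at 49.6 RPM ± 29.96 in controls and 49.8 RPM ± 4.93 in DCHP libraries of PANDORA-seq (exact permutation p = 0.952) and at 639 RPM ± 235 and 704 RPM ± 248 in traditional RNA-seq (exact permutation p = 0.667). Mir3963 was at 22.4 RPM ± 4.07 and 19.02 RPM ± 6.78 (exact permutation p = 0.476) and at 118 RPM ± 127 and 130.1 RPM ± 109 (exact permutation p = 0.913). Mir5099 was at 90.4 RPM ± 54.5 and 66.6 RPM ± 20.3 in PANDORA-seq (exact permutation p = 0.484). In traditional RNA-seq it was at 105 RPM ± 41.5 in controls and 239.9 RPM ± 327 in DCHP libraries (exact permutation p = 0.603). That 135 RPM difference rested on replicate 5 of the DCHP group, without which the DCHP mean was 9.91 RPM lower than the control mean.

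By edgeR, none of the 4 hairpins was called in either method or for the difference between methods, and neither was any other hairpin. The share called was 0% of 638 hairpins in PANDORA-seq, 0% of 1052 in traditional RNA-seq and 0% of 615 for the interaction of method and exposure. The interaction count of 0 was not stable, since its smallest adjusted p by edgeR was 0.1004 and 47 to 78 hairpins were called when any of 6 single libraries was left out. At an unadjusted p below 0.05 there were 71, 131 and 98 hairpins. DESeq2 also called 0 in each of the 3 fits. The log2 fold changes (DCHP against control) of Gm27527, Mir1957a, Mir3963 and Mir5099 were 0.01, 0.83, -0.24 and -0.44 in PANDORA-seq and 0.14, 0.31, 0.14 and 1.20 in traditional RNA-seq, beside medians of 0.06 and 0.40 over all hairpins tested. The interaction terms of the 4 had adjusted p of 0.377 to 0.875 by edgeR.

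The form of the counted reads was compared as well. Percent of reads of 20 to 24 nt, at the leading start and without mismatch were compared for each hairpin in each method, 24 tests in all, and 0 had an exact permutation p below 0.05. Of these, 3 could not pass at all, since Mir3963 had reads of 20 to 24 nt in 0 PANDORA-seq and 1 traditional library and Mir1957a had exact reads in 1 PANDORA-seq library. Among hairpins with 100 or more reads in every library of the method, such p-values were found for 3.38%, 2.03% and 2.03% of 148 hairpins in PANDORA-seq and for 9.78%, 3.42% and 3.42% of 409 in traditional RNA-seq. The smallest p was that of the Mir5099 reads without mismatch in PANDORA-seq, with 0.536% ± 0.160 in controls (n = 4) and 1.48% ± 0.982 in DCHP libraries (n = 5; exact permutation p = 0.0556). The values were 0.628%, 0.319%, 0.680% and 0.518% in control and 0.673%, 0.786%, 1.101%, 1.78% and 3.06% in DCHP replicates, with overlap in replicate 1 of the DCHP group. Without that library the difference was 1.15 percentage points (exact permutation p = 0.0286). Leaving out another library gave exact permutation p of up to 0.143. The reads without mismatch were few, at 11, 4, 50 and 22 in control and 23, 12, 27, 28 and 133 in DCHP replicates. The share of Mir5099 reads at the leading start in traditional RNA-seq, 40.01% ± 2.03 in controls and 43.05% ± 2.92 in DCHP libraries (exact permutation p = 0.0794), differed by 3.84 percentage points without DCHP replicate 2 (exact permutation p = 0.00794). Leaving out another library gave exact permutation p of up to 0.190. The 2 leave-outs given here were the only ones of 228 for read features with an exact permutation p below 0.05.

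The libraries differed in other small RNAs as well. Summed levels of hairpins that mark epididymal epithelium (5 of 5 in the annotation) ranged from 684 to 1846 RPM in traditional control and from 995 to 5931 RPM in traditional DCHP libraries, and from 3.26 to 10.6 RPM and 5.47 to 59.4 RPM in PANDORA-seq. Those of smooth muscle (4 of 4) ranged from 1416 to 6486 RPM and 1724 to 7190 RPM, and from 2.67 to 14.6 RPM and 5.05 to 113 RPM, with Mir133a-1 at 0 in PANDORA-seq. Blood hairpins (3 of 4 listed) were at 51.7 to 181 RPM and 36.7 to 91.5 RPM, and at 1.45 to 2.29 RPM and 0.634 to 2.43 RPM. Male germ cell hairpins (3 of 3) were at 151 to 350.1 RPM and 249 to 802 RPM, and at 1.38 to 1.81 RPM and 1.75 to 11.4 RPM. Their part in the levels of the 4 hairpins was not tested.

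The levels of the 4 hairpins over the libraries gave only weak and unstable correlations with each other. As deviations of log2(RPM + 0.1) from the mean of the method, over 19 libraries, Pearson's r between hairpins ranged from -0.40 (Mir1957a and Mir5099) to 0.33 (Gm27527 and Mir1957a). Without the 2 libraries farthest from the median of either hairpin, the former became 0.05 or -0.48 and the latter 0.17 or 0.006, so both ends of this range rested on few libraries. Other pairs moved past the upper end of the range. Gm27527 and Mir3963 went from 0.25 to 0.45 or 0.07, and Gm27527 and Mir5099 from -0.03 to 0.36 or -0.06. The annotated small RNA genes most like each, among 1527 with a mean of at least 1 RPM in both methods, are given as a description. All points share their library and its read total. Gm27527 was most like Bc1-ps1 (r = 0.9998), which counts nearly the same reads, and then the 5S rRNA copies n-R5s195 and n-R5s71 (r = 0.74 each). Without the 2 libraries farthest from the median, the last values fell to 0.42 each.

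Mir3963 was most like the hairpins Mir3968 (r = 0.93), which shares part of its reads, and Mir6412 (r = 0.89) and the small RNA Gm23599 (r = 0.89), and these were 0.90, 0.81 and 0.79 without the 2 farthest libraries. Mir1957a was most like Gm24371, Gm25284 and Gm26027 (r = 0.73, 0.72 and 0.71). Mir5099 was most like 3 snoRNAs, RNAs that guide the modification of rRNA: Gm25091 (r = 0.95), Snord49a (r = 0.93) and Snord47 (r = 0.90). These fell to 0.81, 0.73 and 0.59 without the 2 libraries farthest from the median.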

How the data were processed

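For each of the 19 libraries, the authors deposited counts: each distinct cleaned read of 15 to 45 nt with its number of reads, not normalized. They analysed them with SPORTS1.1 with 1 mismatch allowed, and the processing notes name mm10. Adapter and quality settings are not given in the sources used here. Here every sequence was matched to 2198 miRNA hairpins and 3910 other small RNA genes of GENCODE vM21 (GRCm38), in the sense direction, allowing 1 mismatch, and its reads were given to every gene it matched. 4 hairpins that hold a tRNA locus were left out.

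Levels and read features were compared by two-sided exact permutation tests of means. Hairpin counts were tested with edgeR 4.0.16 in R 4.3.3 (total reads as library size, 10 or more reads in 4 or more libraries, Benjamini-Hochberg over all tested). On simulated counts with 200 hairpins changed 4-fold, edgeR recovered 96% in PANDORA-seq (638 hairpins) and 90.5% in traditional RNA-seq (1052 hairpins), with 4.95% and 8.12% false calls. The simulated counts used a common dispersion for all hairpins of a method (0.160 and 0.304). They do not tell how many changes below 4-fold, or in hairpins of wider spread, would be recovered. DESeq2 1.42.0 was an alternative, with 5.42% and 13.96% false calls on the simulated counts.

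The 4 hairpins, and the lists, were chosen with earlier results of these data known. Named by rule were the 4 hairpins, up to 5 sequences each per method, the 3 most similar genes, Mir6240 and Mir6236, and, as comparison, Mirlet7a-1, Mirlet7f-2, Mir10a, Mir10b, Mir21a, Mir26a-1, Mir30a, Mir34c, Mir148a, Mir191, Mir200b and Mir143. Counts of reads were not corrected for PCR copies. In the 36 pairs of libraries of a group, chi-square per degree of freedom was at least 22.5, so no pair held the same counts within sampling noise. This does not show that libraries came from separate sperm samples.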

Additional observations from a re-analysis of the deposited data

Results flagged for a closer look

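In each group of 4 or 5 libraries, a library was listed when its gap to the next value exceeded Dixon's critical value. Of 64 groups examined, 5 had such a library, where chance gives about 1 in 20. The last 2 given here stand apart only because all other libraries of the group were at 0. Mir5099 was at 821 RPM in traditional DCHP replicate 5, against a median of 78.2 RPM in the other 4. Mir3963 was at 341 RPM in traditional control replicate 1, against a median of 60.2 RPM. The Mir5099 reads at the leading start were 45.4% in PANDORA-seq DCHP replicate 5, against 35.8%. Mir1957a reads without mismatch were 0.364% in PANDORA-seq DCHP replicate 2 and 0% in the others, and Mir3963 reads of 20 to 24 nt were 0.0179% in traditional DCHP replicate 3 and 0% in the others.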

How the results depend on the processing

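Differences are DCHP minus control, and none of the sign changes given here passed a test. Levels changed sign or test result in 15 of 72 alternatives. For Gm27527 the PANDORA-seq difference was -1.70 RPM with reads of 18 to 45 nt and -52106.4 per 1000000 reads of the 12 comparison hairpins, and the traditional difference -71.3 per 1000000 other hairpin reads and -1121 per 1000000 comparison reads. The PANDORA-seq rise of Mir1957a missed the threshold with exact matches (0.00599 RPM, exact permutation p = 1), per comparison reads (5085, exact permutation p = 0.317) and with window reads (5.69 RPM, exact permutation p = 0.357), an alternative chosen after the data had been seen, under which its traditional difference of 107 RPM passed. For Mir3963 it was 0.441 RPM (18 to 45 nt) and 15.1 RPM (window reads) in PANDORA-seq and -1.46 RPM (18 to 45 nt) and -277 (per comparison reads) in traditional RNA-seq, and for Mir5099 0.571 RPM with exact matches in PANDORA-seq. The cause was not tested.

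Read features changed sign or test result in 13 of 92 alternatives. In percentage points, Gm27527 at the leading start was -0.0322 (18 to 45 nt) and -0.0165 (2 or more reads) in PANDORA-seq and 0.0347 (exact matches) in traditional RNA-seq. Mir1957a without mismatch was -0.0559 in traditional RNA-seq with 18 to 45 nt. Mir3963 at the leading start was -0.788 (exact matches) and -0.0775 (18 to 45 nt) in PANDORA-seq and -3.72 (exact matches) in traditional RNA-seq, and its traditional reads without mismatch were -0.135 (18 to 45 nt). Mir5099 at 20 to 24 nt was -1.09 (18 to 45 nt) and -1.17 (21 to 23 nt instead) in PANDORA-seq, and its traditional reads without mismatch were -0.319 (18 to 45 nt). With 21 to 23 nt, 1 feature passed, that of Mir5099 in traditional RNA-seq (-3.94, exact permutation p = 0.0238).

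The edgeR log2 fold changes changed sign in 15 of 69 alternatives. In PANDORA-seq, Gm27527 was at -0.026 with TMM normalization and -0.11 by DESeq2, and Mir5099 at 1.02 with exact matches. In traditional RNA-seq, Gm27527 was at -0.15 (TMM), -0.0062 (hairpin reads as library size) and -0.32 (DESeq2), Mir3963 at -0.071 (TMM) and -0.17 (DESeq2), and Mir1957a at -0.020 (DESeq2). The interaction was -0.42 (TMM), -0.14 (hairpin reads) and -0.34 (DESeq2) for Gm27527, and -0.16 (TMM) and -0.0059 (DESeq2) for Mir3963. In PANDORA-seq edgeR called 15 hairpins without the filter on low counts and 1 with exact matches.

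Replicate numbers are shared by groups, but same-numbered control and DCHP libraries correlated with r of -0.43 to 0.20 in PANDORA-seq and -0.30 to 0.40 in traditional RNA-seq, so they were not taken as paired. With the replicate block, the PANDORA-seq difference was -0.752 RPM for Gm27527 and 3.19 RPM for Mir1957a (exact permutation p = 0.125, the smallest that 4 pairs allow), Mir5099 at 20 to 24 nt was at -0.661 percentage points, the interaction of Gm27527 was -0.067, and edgeR called 1 hairpin in PANDORA-seq.

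Leaving out 1 library at a time moved the level differences over these ranges, in RPM: Gm27527 from -11.5 to 12.9 in PANDORA-seq and from -31.4 to 154 in traditional RNA-seq, Mir3963 from -27.8 to 67.5 in traditional RNA-seq, and Mir5099 from -38.1 to 2.78 in PANDORA-seq and from -9.91 to 178 in traditional RNA-seq. In percentage points, Gm27527 ranged from -0.164 to 0.0359 at the leading start (traditional) and from -0.0655 to 0.186 without mismatch (PANDORA-seq). Mir1957a in traditional RNA-seq ranged from -0.986 to 1.67 at 20 to 24 nt, from -5.58 to 0.120 at the leading start and from -0.0558 to 0.0437 without mismatch. Mir3963 ranged from -0.330 to 10.2 (PANDORA-seq) and -2.71 to 3.92 (traditional) at the leading start, and from -0.790 to 0.890 and -2.01 to 4.79 without mismatch. Mir5099 at 20 to 24 nt ranged from -1.52 to 3.49 in PANDORA-seq. The log2 fold changes ranged from -0.30 to 0.43 (Gm27527) and -0.65 to 0.061 (Mir5099) in PANDORA-seq, from -0.073 to 0.36 (Gm27527), -0.39 to 1.06 (Mir3963) and -0.14 to 1.44 (Mir5099) in traditional RNA-seq, and from -0.29 to 0.44 (Gm27527) and -0.15 to 1.29 (Mir3963) for the interaction. Interaction calls ranged from 0 to 78 hairpins: 58 and 65 without PANDORA-seq control replicates 1 and 2, 78 without PANDORA-seq DCHP replicate 1, 67, 47 and 57 without traditional DCHP replicates 1, 2 and 4, and 0 without any other library. At 111 to 280 reads per PANDORA-seq library, counting error limits Mir1957a most.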
